A study of Danio rerio with 2 samples.

Results

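Globin genes and the erythroid genes of haem synthesis and red cell identity mark the red blood cells that remain in a dissected liver. To describe these genes after man1a2 knockdown, RNA sequencing counts were compared between 1 library of pooled livers from zebrafish injected as embryos with a morpholino against man1a2 (morphants) and 1 library of pooled livers from uninjected controls, all larvae at 5 days post fertilization. The set holds 10 named genes (hbae1.1, hbae1.3, hbae3, hbae5, hbbe1.1, hbbe2, hbbe3, alas2, epor and gata1a), taken by symbol, with no threshold on measured values. Earlier results of these data were known when it was chosen. An Ensembl ID under the same symbol was found for 8 of them among the 31953 IDs of each count table, and hbbe1.1 and hbbe2 were left without one. A further 5 IDs carried HBE1, the symbol of a human beta-type globin. Since that symbol does not say which zebrafish gene each is, they are given beside the set and not as members of it.

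Each library was made from RNA of 3 batches of larvae pooled before sequencing, with 100 livers named per pool or per batch. The morphants' injection and the controls' lack of any injection were the labelled difference, and no mock injection was among the samples. The study kept several transgenic lines, and the line of the sequenced larvae was not given, nor was the morpholino or dose behind the pool. The labels give 2 morpholinos against man1a2, a mannosidase of the Golgi, and they are shown because they define the morphant group. Capitals mark the complement of the start codon in the translation blocker.

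man1a2-ATG MO: ccggcgtggtCATattttgatgatc

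man1a2-splicing MO: aagaatgtaaactcacctctctgat

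The morphant library held 19783886 counts and the control library 19658335. The 14 hepatocyte markers examined took 19.6% of morphant counts and 20.4% of control counts, and none of them was at 0 in either library. The targeted gene man1a2 had 195 morphant and 193 control reads, which says nothing of the knockdown, since a morpholino can block translation or splicing and leave the transcript in place. With 1 library per group no difference could be set against the spread between pools,. Ratios are of counts divided by size factors, morphant over control, with a pseudocount of 0.5. Their 95% intervals (Clopper-Pearson, without the pseudocount) cover counting error only. A gene was called lower or higher by a read test, an exact binomial test of its reads, with an adjusted p under 0.05 over all 15732 genes tested and a fold of 1.2 or more. That test compares 2 libraries and not 2 conditions.

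Haemoglobin is a tetramer of alpha-type and beta-type globin chains, each holding a haem group that binds oxygen. Zebrafish larvae use embryonic globins (hbae and hbbe genes), and adult globins (hbaa and hbba genes) take over later. Haem is built in steps shared by all tissues. The first step is run in red cells by alas2 and elsewhere, the liver included, by alas1. The transcription factor gata1a drives the red cell programme, and epor is the receptor through which erythropoietin keeps red cell precursors alive.

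Of the 8 genes with an ID, 5 were lower in the morphant library by the read test (hbae1.1, hbae1.3, hbae3, alas2 and epor), 2 were not past it (hbae5 and gata1a) and 1 had too few reads to be tested (hbbe3). Among all genes tested, 13.0% were called lower (2045 genes) and 13.0% higher (2045 genes). No gene of the set was called higher. A fall of 2-fold or more was seen for hbae1.1 and alas2 among the 5 genes of the set whose normalized counts averaged 10 or more. The share among all 14241 genes with such an average was 4.14%, and 3.30% were 2-fold or more higher. The median log2 ratio of those 5 genes was -0.67, beside 0.01 over the 14241 genes. In bulk livers, fewer red cells and less RNA per red cell cannot be told apart.

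**Figure D1:**
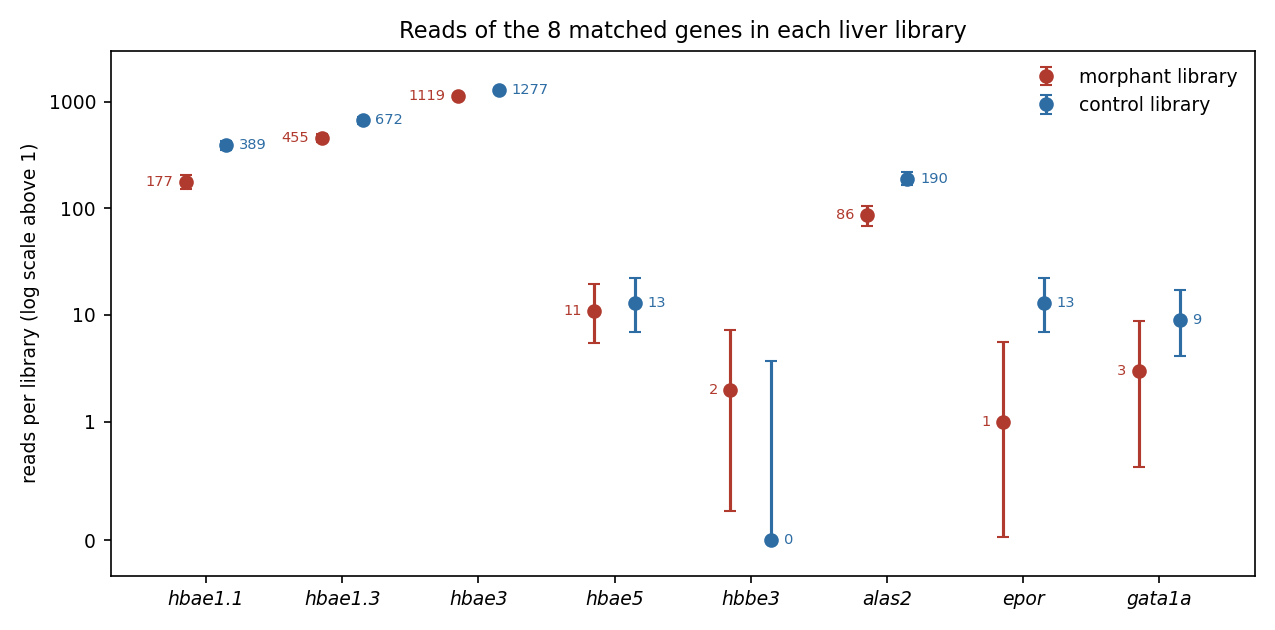
Reads of the 8 matched genes in the morphant library (red) and the control library (blue), on an axis that is logarithmic above 1 read; bars are 95% Poisson intervals of the count. For hbae1.1 (177 and 389 reads), hbae1.3 (455 and 672) and alas2 (86 and 190) the intervals of the libraries do not overlap. Nor do those of hbae3 (1119 and 1277) and epor (1 and 13), while those of hbae5, hbbe3 and gata1a do. These are raw reads, before scaling, and the hbae3 call ended when libraries were scaled by total counts. The share of all genes whose intervals do not overlap was not counted.

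Among the genes of the set with an ID, the alpha-type globins carried most of the reads. The beta-type hbbe1.1 and hbbe2 had no ID, so their share was not measured. For hbae1.1 (ENSDARG00000089475) there were 177 reads in the morphant library and 389 in the control library, or 8.95 and 19.8 CPM (counts scaled to a common library total). Folds and log2 ratios use size factors instead, so they differ from ratios of the CPM values. The gene was 2.37-fold lower in morphants, and its log2 ratio was -1.24 (interval -1.51 to -0.98, exact binomial adjusted p = 1.57e-21). Only 2.61% of the 14241 genes had a ratio as low. For hbae1.3 (ENSDARG00000089124) there were 455 morphant and 672 control reads, a log2 ratio of -0.67 (interval -0.85 to -0.50, exact binomial adjusted p = 2e-13), and 9.33% of genes had a ratio as low.

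The difference was smaller for hbae3 (ENSDARG00000079305), with 1119 morphant and 1277 control reads. Its log2 ratio was -0.30 (interval -0.42 to -0.18, exact binomial adjusted p = 4.09e-06), and 24.1% of genes had a ratio as low. Its fold of 1.23 lay just past the minimum of 1.2. Scaling both libraries by total counts moved its log2 ratio to -0.20 and ended the call. The intervals of hbae1.1, hbae1.3 and hbae3 did not overlap each other, so these embryonic alpha globins differed unequally by more than counting error. How reads were split between hbae1.1 and hbae1.3 is uncertain, as described below.

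The remaining globins of the set with an ID were near the limit of detection. For hbae5 (ENSDARG00000045142) there were 11 morphant and 13 control reads, a log2 ratio of -0.33 (interval -1.65 to 0.93), and neither a rise nor a fall was detectable at this depth. For hbbe3 (ENSDARG00000038147), a beta-type globin, there were 2 morphant reads and 0 control reads. Both are under the limit of 3 counts that a count of 0 allows, which is 0.152 CPM in the morphant library and 0.153 CPM in the control library, so no fold is given.

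In RefSeq's zebrafish assembly GRCz12tu, haemoglobin genes lie in 2 clusters. The larger holds hbae1.1, hbae1.3 and hbae3 among its 11 haemoglobin genes, and also hbbe1.1, while the smaller has 4 genes, hbae4, hbae5, hbbe2 and hbbe3. The 6 genes of the larger cluster that had an ID under their own symbol summed to 2441 morphant and 3235 control reads. The 3 such genes of the smaller cluster summed to 19 morphant and 24 control reads. Genes without an ID, hbbe1.1 and hbbe2 among them, are not in these sums. The HBE1 IDs could not be assigned to a cluster, so the full reads of either cluster are not known.

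The other haemoglobin IDs extended the comparison beyond the set. The tandem copy hbae1.2 (ENSDARG00000088330) had 687 morphant and 897 control reads and a log2 ratio of -0.49 (interval -0.64 to -0.35), past the read test. Ordered by log2 ratio, the embryonic alpha globins with over 100 reads in each library ran from hbae1.1 (-1.24) over hbae1.3 (-0.67) and hbae1.2 (-0.49) to hbae3 (-0.30), and the interval of hbae1.2 overlapped those of both its neighbours in this order. The values of hbae1.1, hbae1.2 and hbae1.3 are uncertain one by one, because a read may match more than 1 of these near-identical copies and the rule by which such reads were assigned is not given in the sources used here. Summed over these 3 copies, there were 1319 morphant and 1958 control reads, a log2 ratio of -0.68 (interval -0.78 to -0.58).

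Of the 5 IDs under HBE1, 2 had enough reads to be tested. ENSDARG00000045143 had 452 morphant and 445 control reads, a log2 ratio of -0.09 (interval -0.28 to 0.11) that was not past the test. ENSDARG00000087390 had 186 morphant and 250 control reads and was called lower, with a log2 ratio of -0.53 (interval -0.82 to -0.25). The other 3 HBE1 IDs had between 0 and 2 reads in each library.

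Few or no reads were assigned to adult alpha globins, and the rule for reads that match more than 1 globin is not given. For hbaa1 there were 3 morphant reads and 0 control reads, and hbaa2 was at 0 in both libraries. The embryonic hbae4 had 6 morphant and 11 control reads (log2 ratio -0.92, interval -2.70 to 0.58). Adult beta globins had no ID under their own symbol and could not be separated from the HBE1 IDs.

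The sum over the 5 globins of the set with an ID was 1764 morphant and 2351 control reads. That is 89.2 CPM in morphants (95% interval 85.1 to 93.4) and 119.6 CPM in controls (114.8 to 124.5). By size factors the log2 ratio of the sum was -0.52 (interval -0.61 to -0.43). This sum rests mostly on hbae3, without which the log2 ratio was -0.84, while without hbae1.1 it was -0.41. Over all 14 haemoglobin IDs with a symbol the sum was 3102 morphant and 3955 control reads, a log2 ratio of -0.46 (interval -0.53 to -0.39).

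The make-up of the globin reads also differed between the libraries. Of all reads on the 14 haemoglobin IDs, hbae1.1 took 5.71% in morphants (Clopper-Pearson interval 4.92% to 6.58%) and 9.84% in controls (8.92% to 10.8%). That share is uncertain, because a read may match its near-identical copies hbae1.2 and hbae1.3 as well. The share of hbae3 was 36.1% in morphants (34.4% to 37.8%) and 32.3% in controls (30.8% to 33.8%). Beta-type IDs, hbbe3 included, took 20.8% in morphants (19.3% to 22.2%) and 17.6% in controls (16.4% to 18.8%). The alpha-type IDs summed to a log2 ratio of -0.51 (interval -0.59 to -0.44) and the beta-type IDs to -0.22 (interval -0.38 to -0.06), and these intervals did not overlap. Nearly all beta-type reads were on 2 HBE1 IDs, ENSDARG00000045143 at -0.09 and ENSDARG00000087390 at -0.53. The contrast with the alpha-type IDs thus rests on the first of these. Which zebrafish beta-type genes are covered by these IDs is not known.

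The haem synthesis gene of red cells, alas2 (ENSDARG00000038643), had 86 reads in the morphant library and 190 in the control library, or 4.35 and 9.67 CPM. It was 2.38-fold lower in morphants, with a log2 ratio of -1.25 (interval -1.64 to -0.88, exact binomial adjusted p = 7.56e-11), and 2.57% of genes had a ratio as low. Its counterpart alas1 (ENSDARG00000021059), which runs the same step in the liver and other tissues, had 5404 morphant and 5269 control reads. The log2 ratio of alas1 was -0.07 (interval -0.13 to -0.02), short of the minimum fold. The intervals of alas2 and alas1 lay far apart, so the erythroid and the general form of the enzyme differed unequally between the libraries.

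Of the 7 IDs examined among the other enzymes of the pathway, alas1 included, 1 was lower (ppox), 1 was higher (cpox) and 5 were not past the test. That is 14.3% in each direction, beside 13.0% of all genes. Red cells share these enzymes with hepatocytes. The median log2 ratio was -0.07. The step after alas1 and alas2 is run by alad, with 315 morphant and 294 control reads and a log2 ratio of -0.01 (interval -0.24 to 0.23).

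The enzymes uros (80 morphant and 77 control reads) and urod (281 and 286), which act further along the pathway, had log2 ratios of -0.05 and -0.13 with intervals that included 0. In contrast, cpox, coproporphyrinogen oxidase, had 791 morphant and 375 control reads. Its log2 ratio of 0.97 (interval 0.79 to 1.15) was as high as or higher than those of 96.5% of genes. The last 2 steps had ratios below 0. For ppox there were 146 morphant and 200 control reads (-0.56 on the log2 scale, interval -0.88 to -0.25, with an adjusted p of 0.0020 in the exact binomial test). For fech, which inserts iron into the ring, there were 47 and 68 (-0.63 on the log2 scale, interval -1.21 to -0.08), and it missed the threshold (adjusted p = 0.058, exact binomial test).

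**Figure D2:**
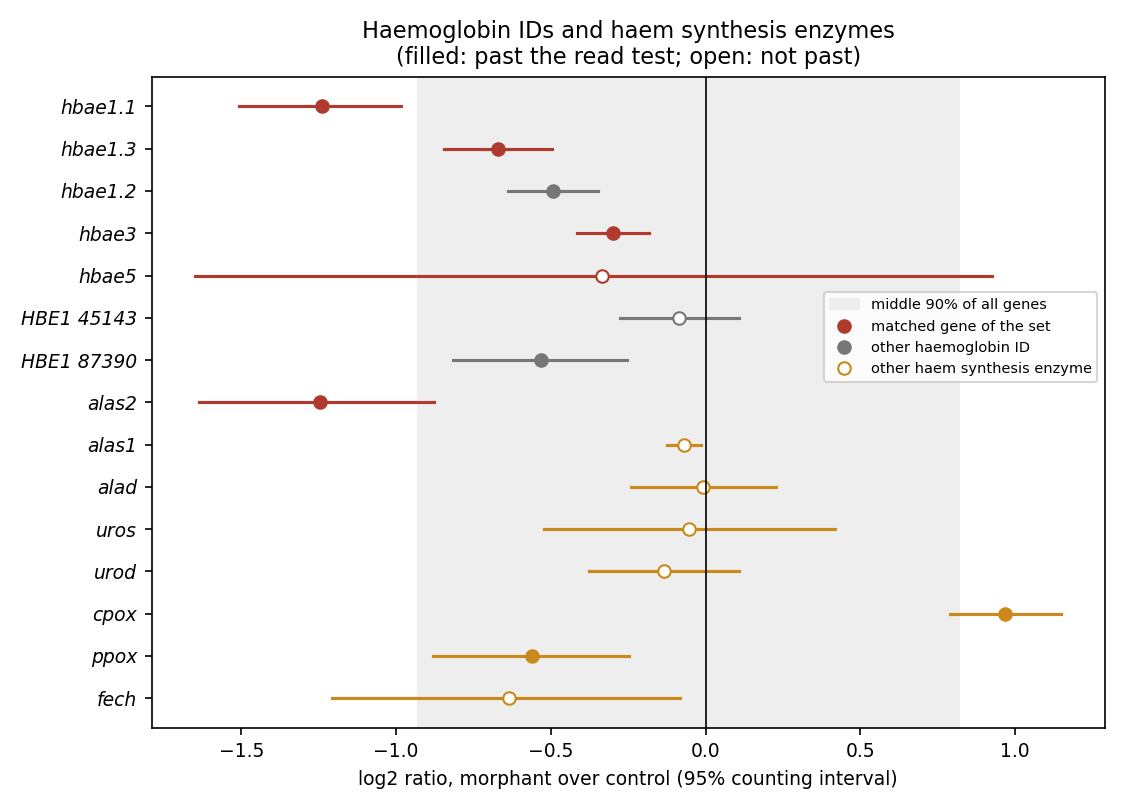
Log2 ratios, morphant over control, of haemoglobin IDs and of haem synthesis enzymes in pathway order from alas2 and alas1 to fech; lines are 95% counting intervals, filled points are past the read test and the grey band spans the middle 90% of all genes, from -0.93 to 0.82. The points of hbae1.1 (-1.24) and alas2 (-1.25) lie below the band, that of cpox (0.97) lies above it, and the other enzymes shown lie inside.

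The receptor gene epor (ENSDARG00000090834, listed as EPOR) had 1 read in the morphant library and 13 in the control library. It passed the read test (exact binomial adjusted p = 0.00339), and its log2 ratio was -3.26 (interval -9.22 to -1.07). At 1 read the size of this ratio depends on the pseudocount, and it was -1.63 with a pseudocount of 5. For gata1a (ENSDARG00000013477) there were 3 morphant and 9 control reads, a log2 ratio of -1.54 (interval -4.21 to 0.31, exact binomial adjusted p = 0.181). Both genes had few reads, and for gata1a no difference was detectable at this depth.

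Other genes of the red cell pathway were grouped by known function. Of 10 IDs of erythropoietin and its signalling genes, 2 were lower and 2 higher (20% each), beside 13.0% of all genes in each direction. The hormone gene epoa (ENSDARG00000055163) was higher, with 106 morphant and 48 control reads (log2 ratio 1.03, interval 0.53 to 1.56). Thus the ligand and its receptor epor had ratios of opposite sign. One of 2 SOCS3 IDs (ENSDARG00000025428), an inhibitor of cytokine signalling, was higher with 82 morphant and 25 control reads, and cishb (70 and 98) and stat5a (317 and 365) were lower.

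Of 12 tested IDs of erythroid transcription factors, 2 were lower (16.7%) and 1 higher (8.33%), beside 13.0% of all genes in each direction. The gene zbtb7a, a repressor of foetal globin in humans, had 4 morphant and 26 control reads (log2 ratio -2.66, interval -4.79 to -1.28). The others past the test were klf3 (465 and 539 reads, log2 ratio -0.32) and sox6 (476 and 351, log2 ratio 0.33), a repressor of embryonic globin in mice. The erythroid regulators klf1 (5 reads in each library) and tal1 (12 morphant and 13 control reads) were close to gata1a in reads and were not past the test.

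Genes of the red cell membrane and red cell enzymes are given beside the 13.0% of all genes called in each direction. Of 13 tested membrane and cytoskeleton IDs, 3 were lower and 3 higher (23.1% each). The median log2 ratio was -0.58, while the summed reads were higher, with 8803 morphant and 7268 control reads (0.17). Most of that sum was RHAG, a channel protein of the Rh complex, with 6061 morphant and 5163 control reads (0.12, not past the test). RHAG was at 306 CPM in morphants and 263 CPM in controls. All 14 haemoglobin IDs together were at 157 and 201 CPM. Which cells the RHAG reads came from was not tested. Among the higher IDs an AQP1 ID (ENSDARG00000023713), of a water channel, had 1828 and 1264. The anion exchanger of the red cell membrane, band 3, had an ID under SLC4A1 (ENSDARG00000012881) with 118 morphant and 205 control reads, at a log2 ratio of -0.90 (interval -1.24 to -0.57). The gene epb41b, which codes for protein 4.1 of the red cell skeleton, had 18 morphant and 48 control reads (log2 ratio -1.50, interval -2.39 to -0.71). Also higher were TSPAN33 (ENSDARG00000004497), with 395 morphant and 233 control reads, and tmod4, which is also a muscle gene, with 226 and 130. Of the 8 IDs in the red cell enzyme list, not all of them enzymes, 2 were lower (25%), none higher and 6 not past the test. Their median log2 ratio was -0.11, and 4 of the 8 were below 0. Their summed reads were 9127 in morphants and 8347 in controls (log2 ratio 0.02). Most of that sum was gpx1a, with 7210 morphant and 6523 control reads (0.04, not past the test). The sum thus says little of the other IDs in the list. The first of the lower IDs was cahz, the red cell carbonic anhydrase of zebrafish (118 morphant and 192 control reads, log2 ratio -0.81, interval -1.15 to -0.47). The second was hebp2, which does not code for an enzyme, with 181 and 218 reads (log2 ratio -0.38).

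Most carriers of iron and haem were not past the test. Of 18 tested IDs, 4 were lower and 1 higher, beside the 13.0% of all genes called in each direction. The lower ones included abcb10, a mitochondrial transporter needed for haem synthesis in red cells (245 morphant and 349 control reads, log2 ratio -0.62), tfr2, an iron sensor of hepatocytes (752 and 1011, -0.53), and 1 of 2 ABCB6 IDs (ENSDARG00000074254, 7 and 30, -2.13). The transferrin receptor gene tfr1a, through which zebrafish red cells take up iron, was higher, with 91 morphant and 49 control reads (log2 ratio 0.78, interval 0.27 to 1.32). The mitochondrial iron importer gene of red cells, slc25a37, had 9 and 11 reads and was not past the test.

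Of 6 IDs that clear or break down haemoglobin and haem, 2 were lower (33.3%) and 1 higher (16.7%), beside 13.0% of all genes in each direction. The haptoglobin gene hp, whose product binds free haemoglobin, had 1 morphant and 54 control reads (log2 ratio -5.27, interval -11.2 to -3.32). The haemopexin genes, whose products bind free haem, differed in direction, with 5238 morphant and 11649 control reads for hpxb (log2 ratio -1.26) and 3544 and 2688 for hpxa (0.29). Globins of other tissues were not past the test, and myoglobin (mb) had 405 morphant and 327 control reads (log2 ratio 0.20).

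**Figure D3:**
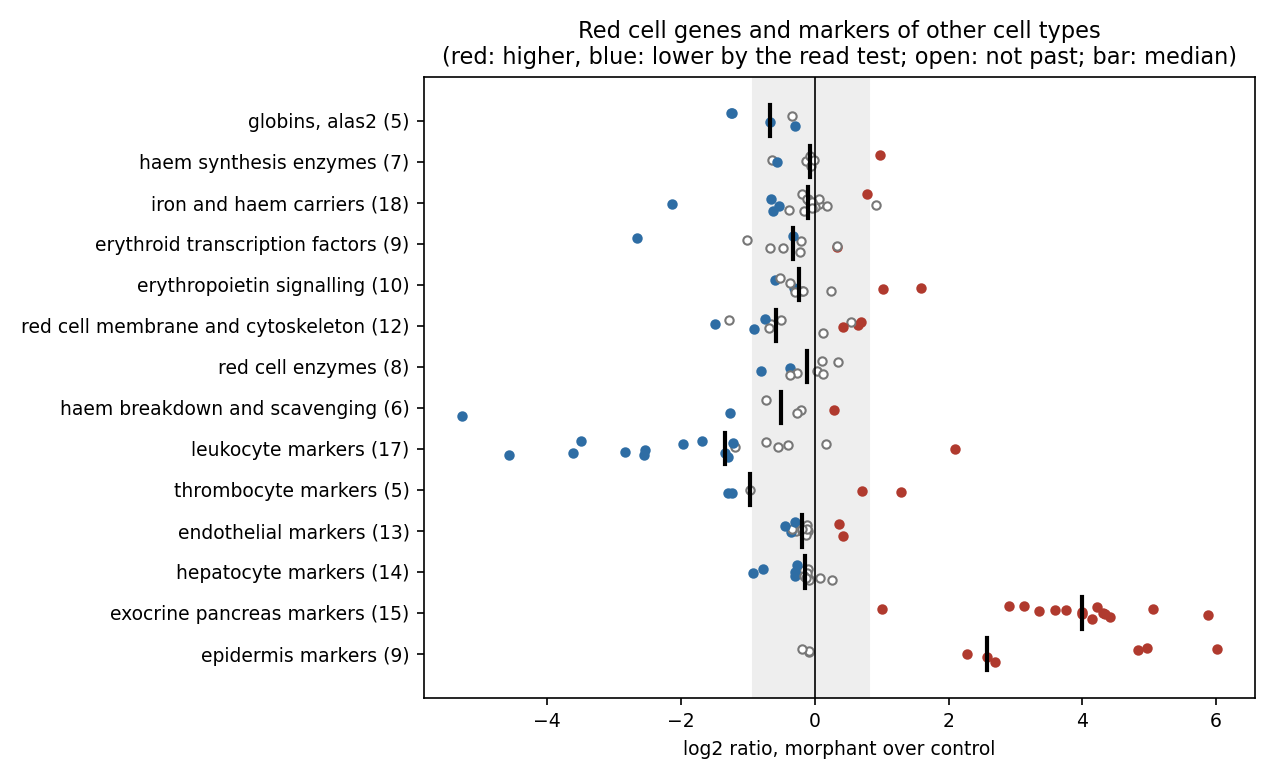
Log2 ratios, morphant over control, of the genes whose normalized counts averaged 10 or more in each list, with the number of genes in brackets; the top row holds hbae1.1, hbae1.3, hbae3, hbae5 and alas2, black bars are medians and the grey band spans the middle 90% of all genes. The top row has all its 5 points below 0, those of hbae1.1 and alas2 on top of each other, with a median of -0.67, the leukocyte row lies lower (-1.35), and the 15 exocrine pancreas points all lie above 0.

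Markers of other cell types also differed between the libraries, where 13.0% of all genes were called in each direction. Of the 19 tested leukocyte IDs, 12 were lower and 1 higher, and the list summed to 225 CPM in morphants and 889 CPM in controls. Its pan-leukocyte gene ptprc had 9 morphant and 22 control reads, and SPI1 (ENSDARG00000000767), of myeloid cells, had 11 and 24. The largest differences by their interval were those of an MFAP4 ID (ENSDARG00000090557, 226 and 2573), lyz (2 and 55), mmp13a (6 and 68) and LECT2 (ENSDARG00000090889, 26 and 176), while 3 of the 24 IDs were at 0 in both libraries. Most of the list's sum came from a second LECT2 ID (ENSDARG00000033227), whose product the liver also secretes, with 193 CPM in morphants and 707 CPM in controls. All 15 tested exocrine pancreas IDs were higher (571.6 CPM in morphants and 37.5 CPM in controls, with prss1 at 1730 and 184 reads and prss59.2 at 2027 and 88). So were 6 of 9 epidermis IDs (110.3 CPM in morphants and 39.6 CPM in controls, with krt4 at 814 and 155 reads and krt5 at 101 and 14).

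Thrombocytes share precursors with red cells. Of 7 tested IDs of their list, 2 were lower and 2 higher (28.6% each), beside 13.0% of all genes in each direction. There itga2b had 4 morphant and 5 control reads, 1 of 2 ITGB3 IDs had 12 and 28, and mpl was at 0 in both libraries. The thrombocyte list summed to 11.5 CPM in morphants and 9.92 CPM in controls. Its median log2 ratio was -0.97 over the 5 IDs whose normalized counts averaged 10 or more, 3 of them below 0. With IDs that averaged 1 or more, the median was -0.24. Endothelial markers summed to 208 CPM in morphants and 213 CPM in controls, a log2 ratio of -0.13 by size factors (interval -0.20 to -0.07). In this list kdrl had 1065 morphant and 1131 control reads and cdh5 had 827 and 940. Of its 13 IDs, 3 were lower (23.1%) and 2 higher (15.4%), and the median log2 ratio was -0.19. Among the 14 hepatocyte markers 5 were lower (35.7%), such as tfa (702507 morphant and 799736 control reads), none was higher, and the median log2 ratio was -0.14. The part of these shifts in the red cell values was not tested.

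The read test leaves out variation between pools, which a single library per group cannot show. Where pools were taken to vary by 0.1 (coefficient of variation, edgeR's exact test), hbae1.1 (adjusted p = 2.57e-05), alas2 (0.000321), epor (0.0417) and hbae1.3 (0.0449) were past the threshold and hbae3 (0.523) was not. With 0.2, none of the 7 tested genes was past it, and the lowest adjusted p was 0.175 for hbae1.1 in edgeR's exact test, beside 3 genes with an unadjusted p under 0.05.

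**Figure D4:**
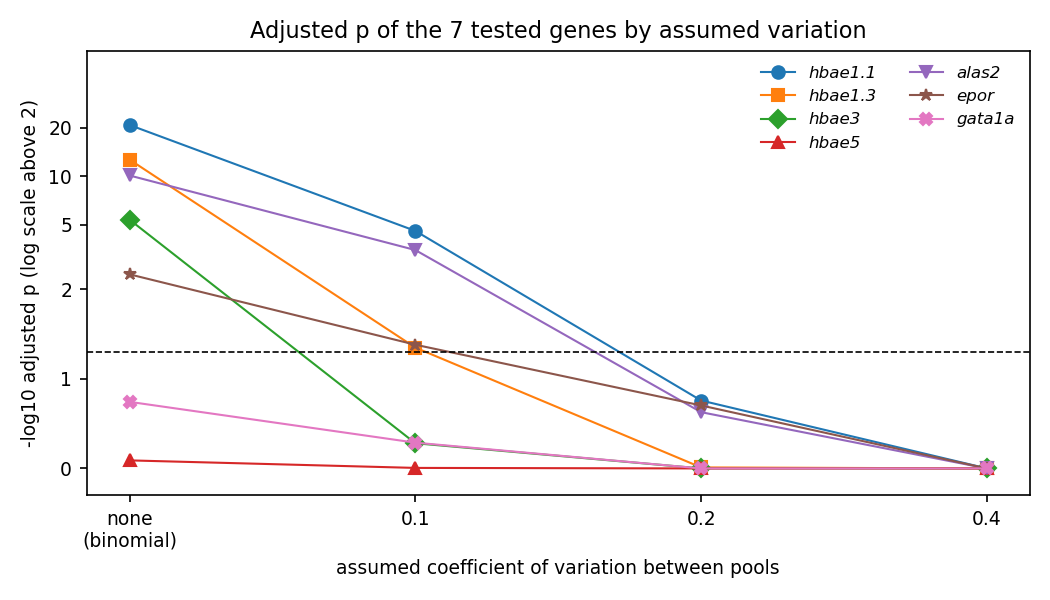
Adjusted p, as -log10 on an axis that is logarithmic above 2, of the 7 tested genes of the set by the coefficient of variation between pools that is assumed, from none (exact binomial test) to 0.4 (edgeR's exact test); the dashed line marks 0.05. Points above the line number 5 with no variation, 4 at 0.1 and 0 at 0.2 and 0.4.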

How the data were processed

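The authors deposited 1 table of raw counts per library, in which each value is the whole number of reads on an Ensembl gene ID, without normalization. Libraries were made with a strand-specific poly-A kit. The submitters' processing notes name the build GRCz10, FastQC and DESeq2. The aligner, the counter and the annotation are not given in the sources used here. A separate name table paired 26121 IDs (81.7%) with a symbol. Members were matched by exact symbol, and the other lists also without a paralog suffix or through a unique RefSeq synonym.

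In R 4.3.3, counts were divided by DESeq2 1.42.0 size factors. edgeR's quasi-likelihood test and DESeq2's test cannot be fitted with 1 library a group. The exact binomial test, 2-sided, was run on all genes with at least 10 reads, with Benjamini-Hochberg adjustment. Its code was run on simulated Poisson counts, which hold no variation between pools and so cannot show how the test fares with it. Alternatives used edgeR 4.0.16. The blind dispersion is the trend DESeq2 fits with both libraries as 1 group. Members and lists were chosen with earlier results of these data known. From each list, up to 4 genes past the test are named, ranked by how far the interval bound nearest 0 lay from 0. All members, the haem enzymes and the 2 markers listed first for each cell type are named too. Some of these are not given, and a few others were named after their values were seen.

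PCR copies are not independent molecules, but the intervals and the read test treat each read as independent. The intervals cover counting error only, and may be too narrow even for that. No sequence of the globins was used here, and 1 item is not reported here.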

Additional observations from a re-analysis of the deposited data

How the results depend on the processing

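No paired analysis was possible because there was 1 library per group, so none could be left out either. In the set, 5 genes were called lower, and 3 with a minimum fold of 2. The count was 0 where pools were taken to vary by 0.2 or 0.4 (coefficient of variation, edgeR's exact test) and 0 under the blind dispersion, where 2 had an unadjusted p under 0.05 and the median coefficient of variation was 0.295. Over all genes, the 2045 lower calls became 596 with a minimum fold of 2, 557, 107 and 19 at a variation of 0.1, 0.2 and 0.4, and 56 under the blind dispersion. Total counts moved log2 ratios up by 0.10, and 68.5% of all calls were then higher against 50% under the main scaling, with 9.32% of tested genes lower. Under that scaling the summed globins had a log2 ratio of -0.42, and hbae3 lost its call. The sum was -0.41 without hbae1.1 and -0.84 without hbae3. The IDs under HBE1, and the sum with them, were added after the name table was seen. No gene of the set changed the sign of its ratio, but none could under these alternatives. Filters, minimum folds and assumed variations leave the ratios as they are, and a pseudocount cannot turn a sign. The largest shift by scaling, 0.10, was smaller than the distance of any of these ratios from 0. The calls of hbae1.1, hbae1.3, alas2 and epor held under every scaling tried. The cause of these changes was not tested. With 2 to 14 reads over both libraries, hbbe3, gata1a and epor are limited by depth.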
